A study of Mus musculus with 6 samples.

Results

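Antioxidant, glutathione and thioredoxin genes were described in quadriceps muscle 7 days after volumetric muscle loss, a surgical injury that removes part of the muscle, here without an implant. The genes were chosen by symbol: the families of superoxide dismutases, glutathione peroxidases, peroxiredoxins, glutathione transferases, glutaredoxins and thioredoxins, together with catalase and other single genes of glutathione supply, methionine repair and their regulation. This gave 65 of the 14016 rows of the deposited table. The mice were WT, which the methods describe as female C57BL/6 of 10 to 12 weeks, and GATA-1 mutant, also known as ΔdblGATA, an eosinophil-deficient strain, with 3 mice of each genotype. The deletion lies in the promoter of Gata1 and is carried by every cell of these mice, eosinophils or not. The age of the mutants is not given in the sources used here, and the methods give neither their sex nor their background strain. RNA with a poly(A) tail was sequenced from whole muscle, which holds fibers, macrophages, fibroblasts and blood together.

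The table holds the authors' own comparison of the genotypes and, for each gene, 1 mean level. Columns of that comparison were not used, and values per mouse were not analysed here, so no difference between WT and ΔdblGATA mice is reported. What follows describes levels. Each is the authors' mean log2 CPM, the binary logarithm of a gene's reads after scaling to a common library size, pooled over libraries that the table does not name and that are taken here as those of both genotypes. No error can be given for it, the depth of the libraries is unknown, and which neighbors in an order of levels differ beyond their spread could not be tested. A long transcript yields more reads than a short one, so genes are ranked against each other after the log2 of the transcript length in kb was subtracted, which gives the level per length (log2 CPM per kb). The longest coding transcript was used unless the median one is named. Log2 CPM itself gives a gene's share of reads and its place in the table.

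Cells make superoxide and hydrogen peroxide during respiration, muscle contraction and the oxidative burst of phagocytes. Superoxide dismutases turn superoxide into hydrogen peroxide, and catalase, peroxiredoxins and glutathione peroxidases remove the peroxide. Peroxiredoxins are recharged by thioredoxin, and glutathione peroxidases by glutathione, and both carriers draw on NADPH through a reductase. NRF2, the protein of Nfe2l2, switches on many of these genes by binding the antioxidant response element.

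The tissue label was in keeping with its markers, since all 8 skeletal muscle markers lay between 10.56 and 14.65 log2 CPM. The 5 macrophage markers lay between 4.40 and 9.12, and the 5 erythroid markers between 2.36 and 7.53 log2 CPM. Erythroid cells are rich in catalase and peroxiredoxin 2, and their part in the levels of Cat and Prdx2 was not tested. Of 9 eosinophil markers only Ear2 had a row, at 0.13 log2 CPM. In whole muscle, more cells of a type and more RNA per cell cannot be told apart.

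The members stood high in the table. Their median was 5.14 log2 CPM, against 4.03 for all rows, and 49 of 65 (75.4%) were above the median of all rows. In the highest 10% of rows, from 6.57 log2 CPM upward, 16 members (24.6%) were found. Per length, 21 members (32.3%) were in the highest 10%, and the median of the members was 4.29, against 2.28 for all rows. The transcripts of the members were short, with a median of 1612 nt against 3139 nt for all rows, so the move from reads to level per length raised them relative to other genes. By log2 CPM, none of the 65 members reached the 99th percentile of all rows.

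**Figure D1:**
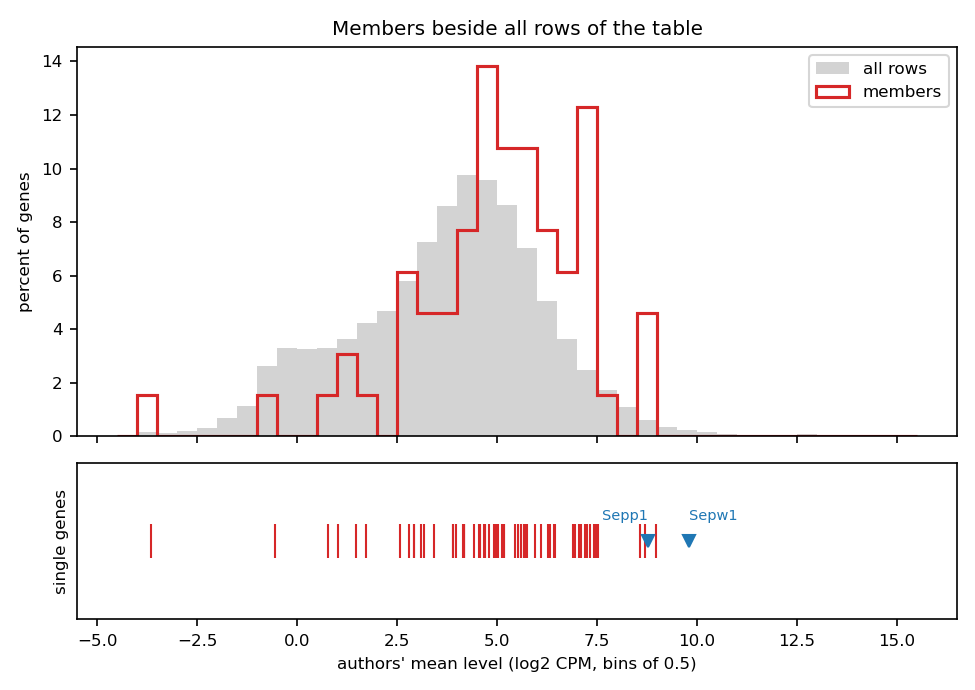
Share of genes (percent, upper panel) by the authors' mean level (log2 CPM, bins of 0.5) for all rows (grey) and for the 65 members (red outline), with each member as a red line in the lower panel and Sepp1 and Sepw1 as blue triangles. The members lie to the right of all rows, with medians of 5.14 and 4.03, and 2 of them lie below 0.

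The rule also names Selenow and Selenop, and no row carries these symbols. The same genes were found under their older symbols, Sepw1 and Sepp1. Sepw1, a small selenoprotein abundant in muscle, was at 9.81 log2 CPM and 10.25 per length, above all 65 members on both scales. Sepp1, a secreted protein that carries selenium between organs, was at 8.78 log2 CPM and 7.72 per length. With its median coding transcript Sepp1 was at 9.30 per length, above the highest member on that scale, Gpx3 at 8.96. Of the 31-base words in the longest Sepp1 transcript, 19.9% occur in Ccdc152, a gene annotated at the same place. With both added, 67 genes had a median of 5.15 log2 CPM and 18 were in the highest 10%.

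Applied to the symbols of the GENCODE M21 annotation, the rule finds 78 protein-coding genes, of which 65 had a row and 2 had a row under the older symbol. The other 11 are not analysed here. They are the glutathione peroxidase genes Gpx2, Gpx5 and Gpx6, the transferase genes Gsta1, Gstm3, Gstm6, Gstp3 and Gstt4, the peroxiredoxin gene Prdx6b, and Txndc2 and Txndc8. The methods describe a filter on low values, by which a gene had to exceed 1 CPM in no fewer than 3 samples. The 65 members are those left in the table, although 2 of them, Gsta2 and Gsto2, had means below 0 log2 CPM.

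**Figure D2:**
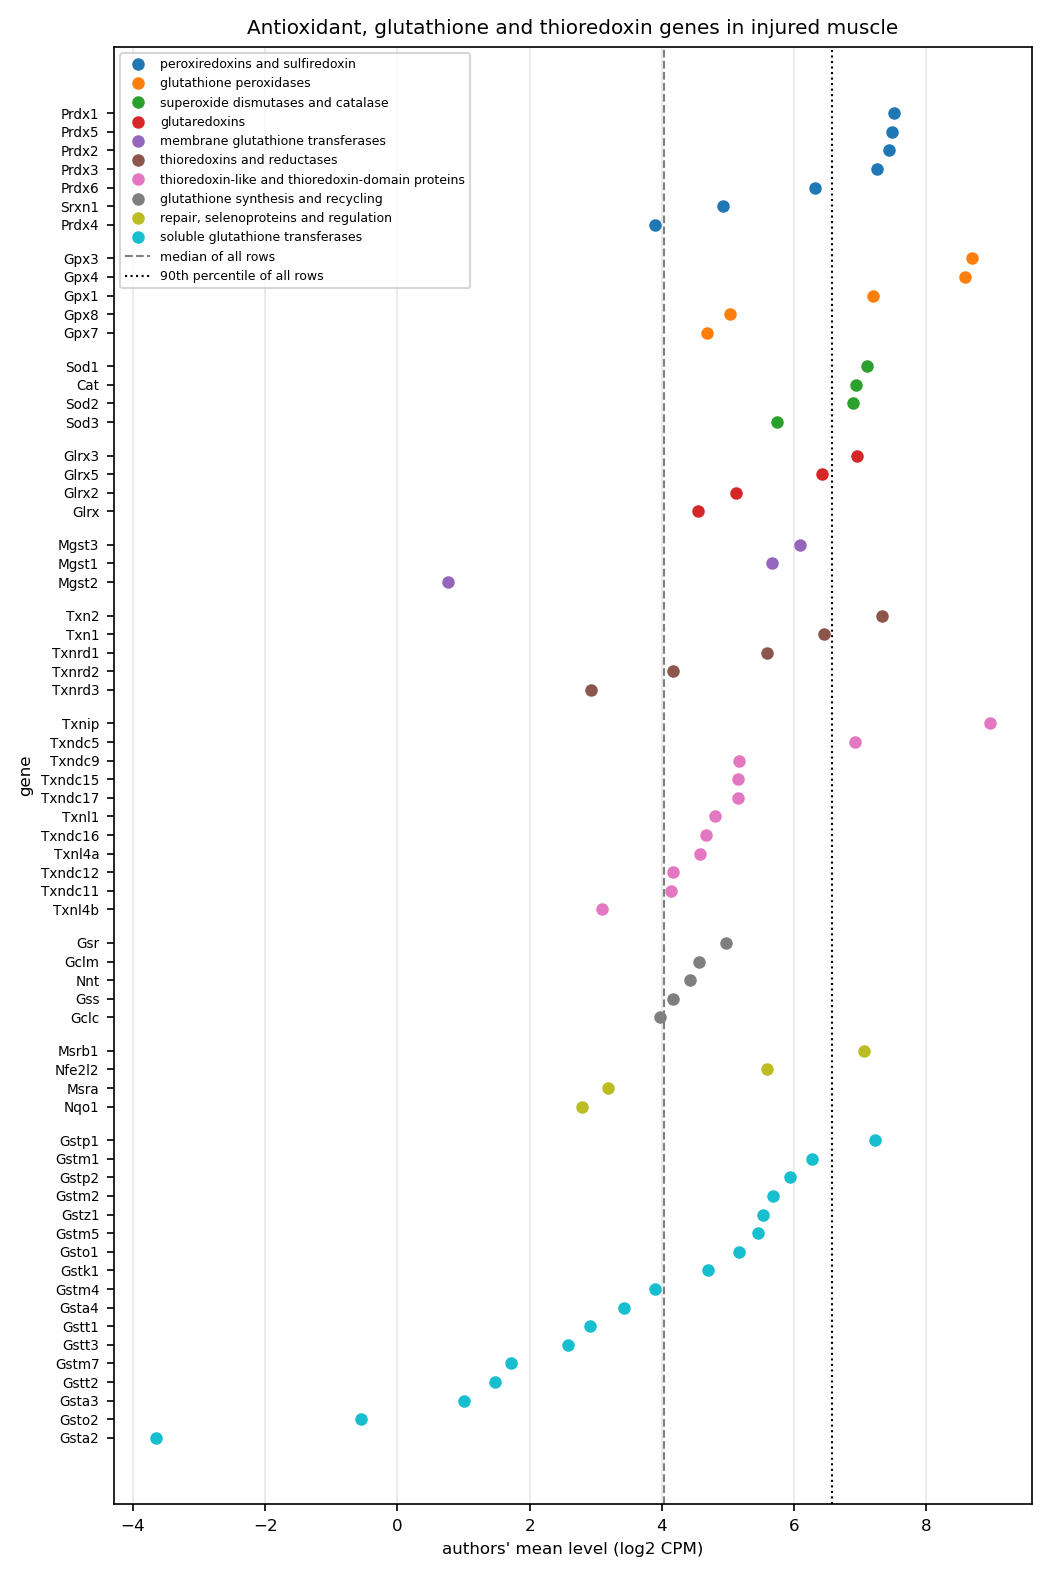
The authors' mean level (log2 CPM, horizontal axis) of each of the 65 members (vertical axis), colored by role, with the median of all rows (dashed, 4.03) and the 90th percentile (dotted, 6.57). The 16 members past the dotted line include 4 peroxiredoxins, 3 glutathione peroxidases, and 3 of the superoxide dismutases and catalase. The soluble glutathione transferases spread from -3.65 to 7.22.

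Glutathione peroxidases had the highest level per length of the 10 roles, with a median of 7.09 over 5 genes. Gpx4, which reduces lipid peroxides within membranes, was at 8.58 log2 CPM and also 8.58 per length, the highest of the 65 members on the second scale with the longest coding transcript, although Gpx3 was higher with the median one (8.96 against 8.64). Gpx3, which is secreted into plasma, was at 8.69 log2 CPM and 8.02 per length. Gpx1, the common cytosolic enzyme, followed at 7.19 log2 CPM and 7.09 per length. These 3 enzymes carry selenocysteine in their active site. Gpx7 and Gpx8, which act in the endoplasmic reticulum and use cysteine instead, were lower, at 4.32 and 4.96 per length. The value of Gpx4 is uncertain, since 66.8% of the 31-base words in its longest transcript are also found elsewhere, nearly all of them in the pseudogene Gpx4-ps2.

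The 6 peroxiredoxins spanned 3.90 to 7.14 per length. Prdx1, Prdx5, Prdx2 and Prdx3 took similar shares of the reads, between 7.26 and 7.52 log2 CPM, and they serve different parts of the cell: Prdx1 and Prdx2 the cytosol, Prdx3 the mitochondria, and Prdx5 several compartments. Per length, Prdx5 was at 7.14, Prdx2 at 6.74, Prdx3 at 6.69 and Prdx1 at 6.32. With the median coding transcript Prdx1 moved from the lowest to the highest of these, at 8.11 against 7.96 for Prdx5, 6.85 for Prdx2 and 6.69 for Prdx3, so no order of the 4 genes is given. Prdx6, which works with glutathione rather than thioredoxin, was at 5.06 per length. Prdx4, the member of the endoplasmic reticulum, was the lowest of the family at 3.90 per length. Srxn1, which repairs peroxiredoxins that have been oxidized too far, was at 4.92 log2 CPM and 3.43 per length. Shared words made up 31.7% for Prdx2 and 30.8% for Prdx5, in the latter case with Trmt112, its neighbor in the genome.

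Among superoxide dismutases, Sod1 of the cytosol was at 7.09 log2 CPM and Sod2 of the mitochondrial matrix at 6.89. Per length they lay apart, at 7.74 for Sod1 and 4.33 for Sod2, because the longest coding transcript of Sod2 has 5861 nt and that of Sod1 641 nt. The difference of 3.40 became 2.51 when the median coding transcript was used. Sod3, the extracellular enzyme, was at 3.84 per length. Catalase, which breaks down peroxide in peroxisomes, was at 6.93 log2 CPM and 5.54 per length. For Sod1, 35.4% of the words were shared, most of them with the predicted gene Gm8566.

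The thioredoxin system consists of a small carrier and the reductase that recharges it, with separate copies in cytosol and mitochondria. Txn1, the cytosolic carrier, was at 6.45 log2 CPM and 6.38 per length. Txn2, the mitochondrial carrier, was at 7.32 log2 CPM and 6.29 per length. Their order turned with the length used, from a difference of 0.09 to -0.96 for Txn1 over Txn2, so no order of the pair is given. Per length, the reductases were lower than the carriers. Txnrd1 of the cytosol was at 3.73 per length, Txnrd2 of the mitochondria at 2.65, and Txnrd3, best known from testis, at 1.42, and Txnrd1 stayed above Txnrd2 with the median transcript, by 0.52.

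Txnip encodes a protein that binds thioredoxin and blocks it, and it is also known as a brake on glucose uptake. With 8.97 log2 CPM it took more reads than any other member, and per length it was at 7.47. Its 31-base words were shared at 19.9%, mainly with Gm15441. The other 10 members of this group carry a thioredoxin fold or name, and many of them do other work. Their median was 4.73 log2 CPM and 3.02 per length, and 9 of the 10 were above the median of all rows. Txndc5, a folding enzyme of the endoplasmic reticulum, was the only one of the 10 in the highest 10% of rows, at 6.92 log2 CPM. Per length, Txndc11 was the lowest of the 10 at 2.05, and Txnl4b, a relative of the splicing factor Txnl4a, was at 2.18.

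Glutaredoxins use glutathione to reduce protein disulfides or to carry iron-sulfur clusters. Glrx3 and Glrx5, which take part in iron-sulfur cluster handling, were at 5.16 and 4.87 per length. Glrx of the cytosol was at 4.11 and the mitochondrial Glrx2 at 3.31 per length. This order, too, turned when the median coding transcript replaced the longest one, from a difference of 0.81 to -1.11 for Glrx over Glrx2.

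Genes that make and recycle glutathione were near the middle of the table. Gsr, the reductase that restores oxidized glutathione, was at 4.96 log2 CPM and 3.55 per length, the highest of the 5 genes with the longest coding transcript. With the median one, Gclm at 4.56 and Gss at 4.04 lay above it. Gss, which adds the last amino acid, was at 3.19 per length. Gclc and Gclm, the catalytic and the modifier subunit of the enzyme that limits the rate of synthesis, were at 3.97 and 4.56 log2 CPM, and at 2.20 and 2.08 per length. The longest coding transcript of Gclm has 5589 nt and the median one 1002 nt, and with the latter its level per length was 4.56, so the balance of the subunits depends on the transcript assumed. Nnt, which makes NADPH in mitochondria, was at 4.43 log2 CPM and 2.64 per length. The C57BL/6J strain is known to carry a deletion within Nnt. The methods give the WT mice as C57BL/6 from the Jackson Laboratory and do not give the background strain of the mutants. The mean pools both genotypes, and the part of the deletion in it was not tested.

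**Figure D3:**
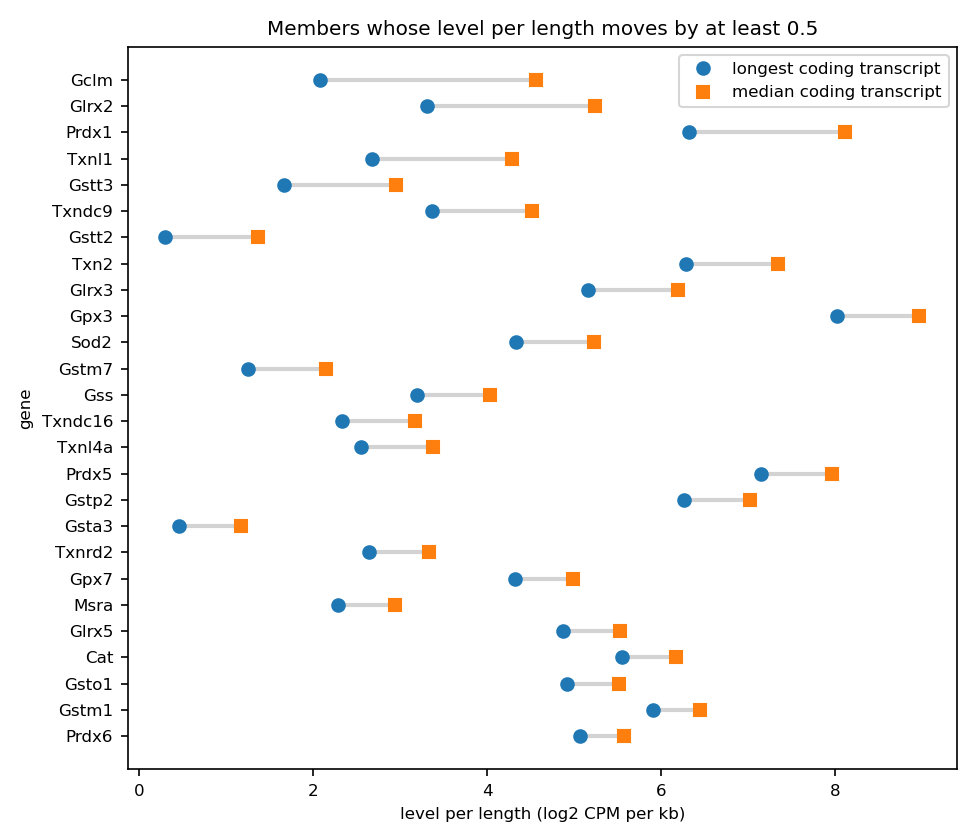
Level per length (log2 CPM per kb, horizontal axis) of the 26 members (vertical axis) for which it moves by at least 0.5 between the longest (circles) and the median coding transcript (squares). Gclm moves furthest, from 2.08 to 4.56, and 9 members move by at least 1.

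The soluble glutathione transferases, which couple glutathione to reactive compounds, were the widest group. Over 17 genes the median was 3.89 log2 CPM, and 9 of them were below the median of all rows. By class, the pi genes Gstp1 and Gstp2 were at 7.50 and 6.26 per length. The 5 mu genes had a median of 5.54 per length, with Gstm1 at 5.90, Gstm2 at 5.59 and Gstm5 at 5.54, while Gstm7 was at 1.26. Gstk1 of mitochondria and peroxisomes was at 4.80 per length, as was Gstz1, an enzyme of tyrosine breakdown. All 3 theta genes and all 3 alpha genes were below the median of all rows by log2 CPM, whereas per length Gsta4 at 3.47 and Gstt1 at 2.77 were above it. Gsta2, of a class best known from liver, was the lowest member of all at -3.65 log2 CPM. Of the omega pair, Gsto1 was at 4.92 and Gsto2 at -0.98 per length.

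Many of these transferase genes are neighbors. In the annotation, 7 mu genes follow each other on chromosome 3 without another protein-coding gene between them, and 5 of them had a row. The same holds for 4 theta genes on chromosome 10, of which 3 had a row, and for 3 pi genes on chromosome 19, of which 2 had a row. Gsto1 and Gsto2 are likewise adjacent on chromosome 19. Levels within a cluster could lie far apart, also between adjacent genes, as for Gstm5 at 5.54 and Gstm7 at 1.26 per length. Gstm1 at 5.90 per length has Gstm2 on one side, close to it at 5.59, and Gstm4 on the other, at 3.12.

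Copies of a gene can also share reads. For 26 of the 65 members no 31-base word of the longest transcript occurs in another gene, and 41 members share under 5%. Over 50% were shared by 4 members, namely Gpx4, Gsta2, Gstp1 and Gstp2. Gstp1 and Gstp2 share 67.5% and 78.1% of their words with other genes, chiefly with each other. Gsta2 shares 75.6%, most of it with Gm10639. How reads were split between such copies was decided by the pseudoaligner, so the levels of these genes are uncertain.

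**Figure D4:**
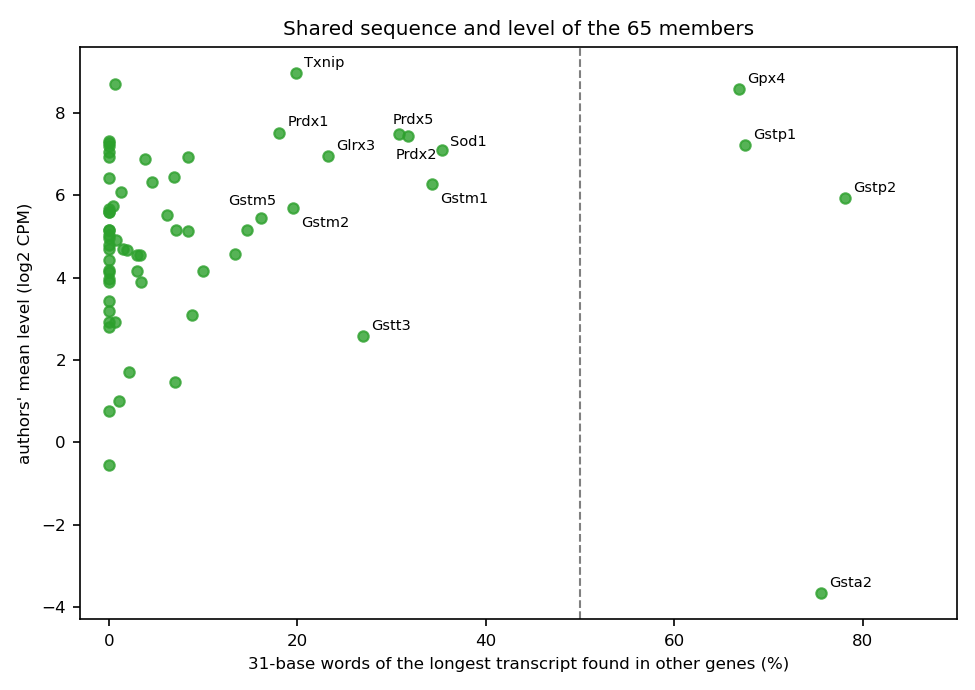
Percent of 31-base words in a member's longest transcript that occur in other genes (horizontal axis) and the authors' mean level (log2 CPM, vertical axis), 1 point per member, named where at least 15% is shared. The 4 genes past the dashed line at 50% are Gpx4, Gstp1, Gstp2 and Gsta2.

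The membrane-bound transferases act on lipids and leukotrienes. Mgst3 was at 5.95 and Mgst1 at 5.44 per length. Mgst2 was lower, at 1.49 per length and 0.76 log2 CPM, below the median of all rows.

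Oxidized methionine is repaired by reductases, and here the levels of the pair were far apart. Msrb1, a selenoprotein, was at 7.05 log2 CPM and 6.78 per length, in the highest 10% of rows on both scales. Msra, which repairs the other stereoisomer, was at 3.18 log2 CPM and 2.29 per length. Of relatives outside the rule, Msrb3 was at 4.64 and Msrb2 at 3.35 per length.

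Nfe2l2 was at 5.59 log2 CPM and 4.29 per length, the median value of the 65 members on the second scale. Nqo1, a quinone reductase often used as a readout of NRF2, was at 2.79 log2 CPM and 2.16 per length, below the median of all rows on both scales. Keap1 and Cul3, which mark NRF2 for degradation, were at 4.67 and 5.21 per length. Bach1, a repressor at the same DNA element, was at 2.63 per length. Among other targets of NRF2, Hmox1 for heme breakdown was at 4.12 and Me1 at 6.19 per length. Park7, which protects cells from oxidative damage, was the highest of the list at 9.01 log2 CPM and 9.11 per length, above all 65 members on both scales. Slc7a11, the cystine transporter, was far lower, at -0.15 log2 CPM and -3.35 per length. All 13 genes of this list had a row, with a median of 3.89 per length.

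The core of the antioxidant response element was searched as TGACNNNGC on both strands of RefSeq promoter windows (GRCm38.p6) that reach from 250 bases before to 50 bases after a gene's start. A window was found for 55 of the 65 members. The core was in a window of 12 of these genes (21.8%, Wilson 95% interval 12.9% to 34.4%, which covers counting error only). It was in 16.7% of 10759 genes of the table with a window and in 14.0% of all 27025 genes with one. Both of these shares lie within the interval of the members. A form with an A after the core was found in 2 of the 55 genes (3.64%), Gsta3 and Txnrd1, against 3.23% of the genes of the table. A match is a description of letters and not a bound site. The following stretches are shown because they carry the core before the start of 5 members of different roles, each read on the strand of its gene with 10 flanking bases, with the core or its reverse complement in capitals.
Gclm: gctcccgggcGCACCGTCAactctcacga
Prdx1: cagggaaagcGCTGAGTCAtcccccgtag
Txnrd1: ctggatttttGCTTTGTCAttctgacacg
Gsta3: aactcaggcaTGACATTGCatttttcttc
Sod1: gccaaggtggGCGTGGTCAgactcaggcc
They lie on the plus strand at chr3:122245413-122245441, chr4:116685456-116685484, chr10:82859104-82859132, chr1:21240454-21240482 and chr16:90220696-90220724. The cores begin at positions -134, -133, -92, -121 and -56 from the start of the gene, in the same order. The core of Gclm, Prdx1, Txnrd1 and Sod1 is on the opposite strand of the gene, and that of Gsta3 on the same strand. The levels of these 5 genes ranged from 0.47 per length for Gsta3 to 7.74 for Sod1. The other members with a core were Nfe2l2, Srxn1, Gstm5, Gstm7, Mgst1, Txndc5 and Txndc11, and in Srxn1 the match began after the start of the gene.

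Enzymes that supply NADPH to both carriers had rows for all 8 genes listed, with a median of 5.07 per length. Idh2 of the mitochondria was at 6.84 and Taldo1 of the pentose phosphate pathway at 6.52 per length, while G6pdx, the entry enzyme of that pathway, was at 3.13. Other selenoproteins and the machinery that inserts selenocysteine, listed together with Msrb2 and Msrb3, had rows for all 17 genes. The median of this list was 3.86 per length. Selenof, listed as Sep15, was the highest of them at 6.81 per length, and the elongation factor Eefsec the lowest at 1.01. For glutathione breakdown 6 of 8 genes had a row, with a median of 3.40 per length, of which Lap3 was the highest at 4.69 and Ggt5 the lowest at 0.00.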

How the data were processed

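Quadriceps muscle of 3 WT and 3 ΔdblGATA mice was sequenced by the authors as paired-end poly(A) RNA. The authors pseudoaligned reads with kallisto, summed them to genes, took CPM from edgeR, dropped genes that did not exceed 1 CPM in 3 or more samples, applied the logarithm and TMM, and fitted limma. The submitters' processing notes name the builds GRCm39 and mm39. The deposited log2 values used here are the authors' mean log2 CPM per gene, taken as spanning the 6 samples, although the table does not name the samples averaged. The other 5 columns hold the authors' fold change, moderated t, p-value, adjusted p-value and log odds for the genotypes and were not used. The planned limma test required a value for each mouse and was not made. Of 14016 rows, 1 has no symbol.

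Percentiles were taken over all rows. In GENCODE M21 (GRCm38), 13458 symbols were found as written and 487 by way of RefSeq synonyms, which gave a transcript length for 99.5% of rows. The longest coding transcript was used. Words of 31 bases were compared with all GENCODE transcripts on both strands. Python 3.11.15, pandas 2.3.3 and scipy 1.17.1 were used, and the calculations were tested on simulated data. Coordinates of promoters are those of GRCm38.p6 and were matched by symbol. The members, lists and named genes were chosen with earlier results of these data known. Every member could be named, with full values for small roles, for the extremes of each role and for the 10 highest per length, and of the other lists the extremes and genes chosen after their values were seen. Pairs by compartment were also chosen after the values were seen.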

Additional observations from a re-analysis of the deposited data

How the results depend on the processing

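No paired analysis was possible because the table gives no value per mouse. For the same reason the limma test and leaving out each mouse were not run, and no error could be attached to a level. The median of the members, 5.14 log2 CPM, was 5.31 without Txnip and the thioredoxin-like and thioredoxin-domain genes, 5.16 among rows of at least 1 log2 CPM, where the median of all rows rose from 4.03 to 4.42, and 5.15 with Sepw1 and Sepp1. Restricting to protein-coding genes left it at 5.14 and moved the median of all genes to 4.06. The count in the highest 10% of rows was 16 to 21 under the settings tried. With the median instead of the longest coding transcript, the median level per length of the members went from 4.29 to 4.56, and that of all rows from 2.28 to 2.82. Adding Sepw1 and Sepp1 gave 4.32. The difference of Txn1 over Txn2 turned to -0.96 and that of Glrx over Glrx2 to -1.11 with the median transcript, while Sod1 stayed above Sod2 and Txnrd1 above Txnrd2. The share of members with an antioxidant response element core fell to 3.64% with the longer form, which is rarer in all genes as well. The settings with Sepw1 and Sepp1 and those of the pairs were chosen after seeing the data.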

Other observations

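Gsta2 and Gsto2 had means below 0 log2 CPM, which is below 1 CPM, as had 1198 of all rows (8.55%). A gene kept by the filter as the methods describe it exceeds 1 CPM in at least 3 samples. If the mean spans 6 samples and normalization is set aside, the other 3 samples of Gsta2 would have to average -7.31 log2 CPM or lower to give its mean of -3.65, and those of Gsto2 -1.10 or lower to give -0.55. The samples behind the mean are not named in the table, and the spread of Gsta2 and Gsto2 between libraries was not analysed here.

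Older symbols affect any selection by name from this table. Beside Sepw1 and Sepp1, the selenoprotein genes Selenof, Selenoh, Selenoi, Selenok, Selenom, Selenon, Selenoo, Selenos and Selenot had their rows under Sep15, 2700094K13Rik, Ept1, Selk, Selm, Sepn1, Selo, Vimp and Selt. The macrophage marker Adgre1 had its row under Emr1, at 4.71 log2 CPM.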
